A study of Mus musculus with 2 samples.

Results

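Among the transcripts of adult mouse cerebellum, 338 annotated retained-intron transcripts from 334 protein-coding genes held a large share of their gene's expression. They were chosen from the measured values themselves: the transcript had to be of the type retained_intron in the GENCODE M21 annotation, to hold at least 30% of its gene's TPM in both libraries, and to belong to an autosomal protein-coding gene with at least 5 TPM in both. TPM is a length-corrected relative abundance, and the authors' percentage of a gene's TPM that falls on one of its transcripts is called IsoPct. The 338 members were 3.11% of the 10876 retained-intron transcripts of the 10111 genes that met the gene criteria, and 101168 transcripts of the files were matched to the annotation in all. Since IsoPct and TPM chose the members, both are given as descriptions without a test.

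RNA was sequenced from the cerebellum of C57BL/6J mice, the standard inbred laboratory strain, aged 8 weeks, in 2 libraries that form a single group with no treatment or genotype contrast. Each library is labelled as pooled male and female tissue of mixed-sex littermates, and both carry one donor record, so nothing given says that the libraries came from separate animals. The libraries were stranded and paired-end, made from polyadenylated RNA of more than 200 nucleotides after depletion of ribosomal RNA, with spike-ins added. Replicate 1 held 83109117 expected counts, which are estimated fragments, and replicate 2 held 84279927. The 18 markers of granule neurons, Purkinje neurons, oligodendrocytes and astroglia lay between 52.6 and 1751 TPM in both libraries, and the 3 forebrain neuron markers between 0.07 and 3.53 TPM. Transthyretin (Ttr), the main choroid plexus transcript, was at 2086 TPM in replicate 1 and 763 TPM in replicate 2, and all 3 choroid plexus markers were higher in replicate 1.

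Introns are removed from a primary transcript by the spliceosome, which recognises the 5′ splice site (donor) at the start of the intron and the 3′ splice site (acceptor) at its end. A transcript that keeps an intron usually carries a stop codon in the intron. Such RNA can stay in the nucleus, be spliced later, or be degraded after export by nonsense-mediated decay. In neurons, kept introns are known as a means of holding back transcripts until a signal arrives, and many genes for splicing factors lower their own protein level through kept introns or exons with stop codons. The annotation class is broader than the textbook case. It also takes in transcript models that begin or end inside an intron without spanning it.

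The splice sites at issue are shown for 12 members: the members whose genes stand in lists of splicing, chromatin and channel genes, and then the members with the highest expected counts. Tial1-208 and Grin2a-203, also in the lists, are not shown because their length differs between the files and M21. Intron bases are in capitals and exon bases in lower case, 5′ to 3′ on the transcript's strand, as read from the GENCODE M21 transcript sequences (mm10). For a member that spans a whole intron, both ends of its longest kept intron are printed. For a member that begins inside an intron the acceptor it runs across is printed, and for one that ends inside an intron the donor.
Rsrp1-204 donor (chr4:134926151-134926734, plus strand): aagGTTAAT
Rsrp1-204 acceptor: AAAATTCTCTTCCTCTTTAGcat
Srsf6-204 donor (chr2:162932143-162932814, plus strand): gcaGTGAGT
Srsf6-204 acceptor: TTGATGTTTCAATTTGAAAGtga
Chd8-207 donor (chr14:52201748-52202143, minus strand): gcgGTGAGT
Chd8-207 acceptor: CCAATTCTTTTCTATTGCAGtat
Ccnl2-205 donor (chr4:155818665-155820328, plus strand): gtgGTATGC
Ccnl2-205 acceptor: CTTCCTGGTTTTGGTTTCAGgaa
Stk25-204 donor (chr1:93626209-93627024, minus strand): aagGTCCTG
Stk25-204 acceptor: ACCTATCCTGTATTGAGCAGctg
Ddx39b-204 donor (chr17:35249070-35251246, plus strand): gatGTAAAT
Prpf31-205 donor (chr7:3630906-3632667, plus strand): aagGTGCCT
Rbm17-206 donor (chr2:11587795-11588927, minus strand): aggGTAAGT
Rbm17-206 acceptor of another intron (chr2:11590831-11593407, minus strand): GCTTTGCTTTTCTTCAACAGtac
Srrm4-203 acceptor (chr5:116453714-116467431, minus strand): ACGGGTCTTTTTGCTTTCAGatc
Cacna1h-204 acceptor (chr17:25378856-25380220, minus strand): CTTCTCTCTTGTGTAGGTAGgga
Cerk-202 acceptor (chr15:86159220-86164967, minus strand): GCGTGGATGTTGTTTTGCAGctt
Cadm3-204 acceptor (chr1:173341760-173344319, minus strand): CGTCATGTACTTCTCCACAGaca

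Every intron printed begins or ends with the usual GT or AG. Where the kept intron lies in a coding region, the reading frame of the main coding transcript can be followed into it. In 4 introns of 2 of these members a stop codon came within 20 codons, and the bases are shown from the codon at the exon's end up to the stop, which is in capitals.
Chd8-207, intron of 396 bases (chr14:52201748-52202143): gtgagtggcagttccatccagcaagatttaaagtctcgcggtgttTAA
Chd8-207, intron of 180 bases (chr14:52202324-52202503): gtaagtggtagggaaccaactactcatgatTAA
Chd8-207, intron of 205 bases (chr14:52204585-52204789): agtgagtgcatgTAA
Stk25-204, intron of 816 bases (chr1:93626209-93627024): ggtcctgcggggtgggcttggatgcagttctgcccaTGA
The stop was the 16th, 11th and 5th codon in the 3 kept introns of Chd8-207 and the 13th in that of Stk25-204.

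Only 106 members spanned a whole intron of another transcript of their gene. These are 32.6% of the 325 members whose length in the files equals that in M21, to which statements on structure are limited, and among the 10224 other retained-intron transcripts of the same kind the share was 31.5%. A further 166 members (51.1%) began inside an intron and ran on into the next exon, against 24.9% of the other retained-intron transcripts. Another 47 members (14.5%) ran past a donor and ended inside the intron, against 34.4% of the others. Both ends lay in introns in 4 members (1.23%), against 8.15%. The remaining 2 members met no intron in any of these ways. The structure was not used by the rule, but short transcripts reach a high IsoPct with fewer fragments, so no test was made.

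**Figure D1:**
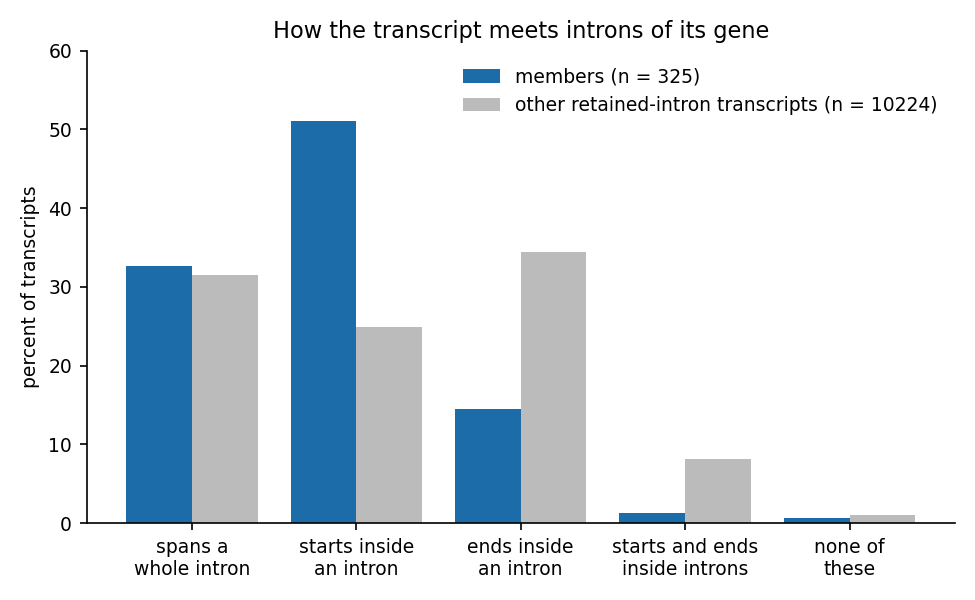
Percent of transcripts (vertical axis) by how the transcript meets the introns of its gene, for members (blue) and for the other retained-intron transcripts of genes that met the same gene criteria (grey). Members began inside an intron in 51.1% of cases, against 24.9%, and ended inside one in 14.5%, against 34.4%.

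The part of a member that no coding transcript of its gene contains was small. Members had a median of 159 bases outside the exons of the gene's protein-coding transcripts, 16.2% of their length, against 321 bases (40.7%) in the other retained-intron transcripts. In the members that began inside an intron, the intronic stretch before the first acceptor had a median of 103.5 bases (4 to 5902), and it was under 20 bases in 17 of 166. In those that ended inside an intron it had a median of 138 bases (14 to 2436). The 3′ end of 119 of 325 members (36.6%) lay within 50 bases of the 3′ end of a coding transcript, against 13.5% of the others. The 5′ end did so in 74 members (22.8%), against 30.04%. Of the members spanning a whole intron, 63 of 106 shared a coding 3′ end and 46 a coding 5′ end.

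Members were usually not the bulk of their gene's fragments. Their median length was 905.5 nucleotides (311 to 6992), against 2090 for the protein-coding transcripts of the same 10111 genes, so a given TPM stands for fewer fragments. The other retained-intron transcripts were also short, with a median of 803 nucleotides. IsoPct had a median of 39.7% and the share of the gene's expected counts one of 22.8% (2.50% to 100%). The count share was at least 30% in both libraries for 126 of 338 members and under 10% in both for 56. It followed length: the median was 11.1% in the 83 members of up to 600 nucleotides, 15.8% in the 135 of up to 1500, and 42.3% in the 120 longer ones, while the median IsoPct of the 3 classes was 39.8%, 38.7% and 40.8%. By structure, the median count share was 41.7% in members that span an intron, 16.9% in those that begin inside one and 13.4% in those that end inside one. Members spanning an intron had a median length of 2108 nucleotides, against 757.5 and 600.

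**Figure D2:**
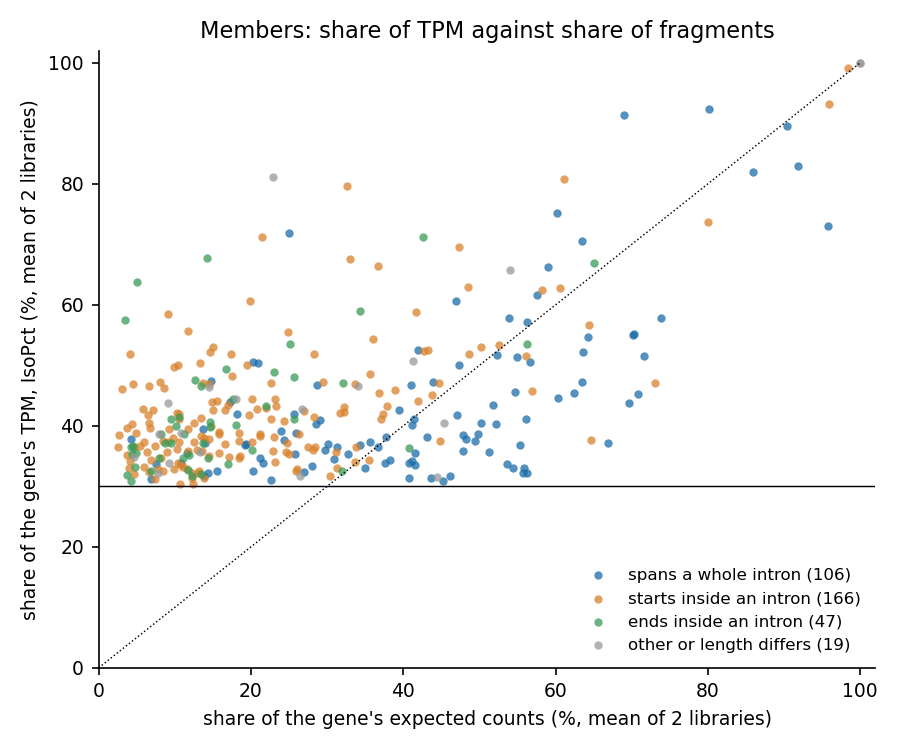
Share of the gene's TPM (IsoPct, vertical axis, percent) against share of the gene's expected counts (horizontal axis, percent), 1 point per member as the mean of 2 libraries, coloured by structure. The solid line is the threshold of 30% and the dotted line marks equal shares. Members that span a whole intron (blue) have a median count share of 41.7%, and those that begin (orange) or end (green) inside one lie mostly above the dotted line.

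In 195 of 338 members the retained-intron transcript had the highest TPM of its gene in both libraries, in 40 in one library only, and in 103 in neither. These counts are partly fixed by the share that chose the members. Of those 103, 98 belonged to genes led by a protein-coding transcript in both libraries. By expected counts, 84 members led their gene in both libraries. Over the 334 genes, all retained-intron transcripts together had a median summed IsoPct of 51.1% and protein-coding transcripts one of 42.9%. By expected counts the order was the other way, with medians of 31.3% and 63.7%. Protein-coding transcripts still reached 5 TPM in both libraries in 268 of the 334 genes, and stayed under 1 TPM in both in 11. In tissue, fewer cells of a type and less RNA per cell cannot be told apart, so none of these levels is a rate of splicing in a cell type.

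Rps9-206 and Cadm3-204 had the highest mean TPM of the members. Rps9-206, from the gene of a protein of the small ribosomal subunit, had 262 TPM in replicate 1 and 335 TPM in replicate 2. It ends inside an intron, and its count share was 21.3% and 24.8%. Ribosomal protein genes have processed pseudogenes that could take part of their reads, so its level is uncertain. Cadm3-204, of the neuronal cell adhesion gene Cadm3, had 286 and 256 TPM, and 41.1% and 41.4% of the gene's TPM, but only 10.4% and 10.6% of its expected counts. Myl12b-202, of a myosin regulatory light chain gene, had 218 and 158 TPM. The library values of Cadm3-204 and Rps9-206 overlapped in range, so neither ranks above the other.

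Dync1h1 shows how far the shares can part. This gene encodes the heavy chain of cytoplasmic dynein, the motor of retrograde axonal transport, and its member Dync1h1-204 is a model of 427 nucleotides that ends 127 bases into the 72nd of 76 introns. It had 129 and 152 TPM, or 55.0% and 60.04% of the gene's TPM, from 1580 and 1926 expected counts, which are 3.22% and 3.73% of the gene's. Lrp1-208, of the endocytic receptor gene Lrp1, was similar with 56.4% and 60.5% of TPM against 8.45% and 9.78% of expected counts. It begins 35 bases before the end of the 86th of 88 introns. In both genes the member lies near the 3′ end of a long transcript.

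Among the others in the top 10 by TPM, Ap2m1-204 (mu subunit of the AP-2 clathrin adaptor) had 202 and 171 TPM and Stmn4-205 (a stathmin, a regulator of microtubules) 176 and 173 TPM. Mrps33-203, of a mitochondrial ribosomal protein gene, had 130 and 140 TPM and 70.2% and 72.0% of the gene's TPM. Of the 9 with a structure class, only Rsrp1-204 spanned a whole intron. The remaining one, Gm42742-201, had 145 and 132 TPM.

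**Figure D3:**
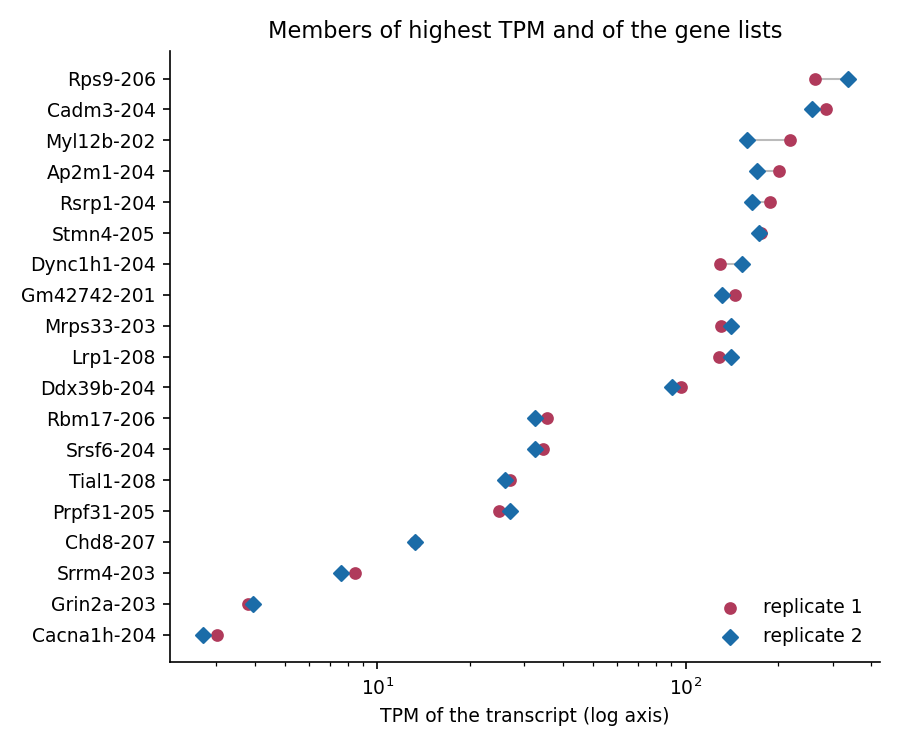
TPM (log axis) in replicate 1 (red circle) and replicate 2 (blue diamond) of the 10 members with the highest mean TPM and of all members whose gene is in the gene lists. Values run between 2.71 TPM (Cacna1h-204) and 335 TPM (Rps9-206), and the largest ratio between the libraries among those shown is that of Myl12b-202, with 218 TPM in replicate 1 and 158 TPM in replicate 2.

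At the top of the shares, 56 members held at least 50% of their gene's TPM in both libraries and 5 at least 90%. In 2 of these the share was fixed by the annotation, since the member is the only transcript that the files list under the gene. Gm42742-201 is listed under Pagr1a, a gene of a histone methyltransferase complex partner, while M21 gives it to a gene of its own, Gm42742. It had 32305 and 31013 expected counts, the highest of all members. Carmil2-201, of a regulator of actin capping, had 35.2 and 35.5 TPM. Its 16 junctions had 5075 spliced reads in replicate 1 and 5351 in replicate 2 of the mm9 tables, and M21 gives it 17 exons. Its length is 2517 nucleotides in the files and 2526 in M21.

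In the other members at high shares, the coding transcripts were scarce. Iltifb-202 held 99.3% and 98.8% of the TPM of Iltifb, a cytokine gene with a near copy (Il22) in the mouse, so reads may be split between them. Il20rb-204 held 91.7% and 94.7% of the TPM of Il20rb, which encodes a chain of receptors for interleukins of the IL-20 group, with 47.8 and 45.9 TPM. The coding transcripts of Il20rb had an IsoPct of 1.23% and 1.18%. This member begins 512 bases before the end of the 4th of 6 introns and shares the 3′ end of a coding transcript. Across that intron 11 and 8 spliced reads were found, against a mean of 185.5 and 206 on the introns to either side.

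Members with an intron kept whole, of 80 to 397 bases, made up most of the remaining high shares. Mrps26-201 (mitochondrial ribosome) kept an intron of 80 bases with 72.5% G and C and held 90.98% and 91.7% of the gene's TPM. Spliced reads over that intron were nonetheless common, at 358 and 401, against 470 and 487.5 on its neighbours. Slc39a2-202 (a zinc transporter) held 89.4% and 89.9%, Dnaic1-203 (an axonemal dynein chain of motile cilia) 89.9% and 94.6%, Npff-202 (the precursor of neuropeptide FF) 82.3% and 83.4%, and Ngrn-202 (neugrin) 80.8% and 83.1%. All but Ngrn-202 among these 4 came from genes under 10 TPM, and Npff-202 rested on 218 and 198 expected counts. Timm17a-204, of a subunit of the mitochondrial inner membrane translocase, held 82.3% and 79.8% of TPM but differs from coding exons by only 4 bases.

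After Gm42742-201, Rsrp1-204 had the most expected counts. Rsrp1-204 had 28391 and 26209 expected counts, 71.4% and 69.2% of those of its gene. Ccnl2-205, of cyclin L2, a partner of splicing-related kinases found in nuclear speckles, had 13096 and 13543, which are 69.7% and 70.6%. Coding transcripts of Ccnl2 held 7.0% and 5.75% of its TPM. The kept intron of Ccnl2-205 is 1664 bases long with 39.7% G and C, and only 7 and 2 reads were spliced across it. Only 1 other transcript of the gene removes an intron with these exact ends, and no coding transcript does. Introns that overlap it were not counted. Stk25-204, of a serine/threonine kinase gene, had 10007 and 10359 (66.4% and 67.2%), with 744 and 684 reads spliced across its kept intron, against 1189.5 and 1229.5 on the introns to either side. Tle2-206, of a Groucho corepressor, had 8667 and 8076 (43.8% and 43.5%). Its intron of 152 bases had 80 and 84 spliced reads, against 1008 on the neighbours in each replicate.

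Cerk-202 (ceramide kinase), Abcc5-207 (an ABC transporter), 5031439G07Rik-202, Cadm3-204 and Gm42742-201 were also among the members with the most expected counts. Abcc5-207 shows a limit of the annotation, since its length is 4875 nucleotides in the files and 523 in M21. Its 10132 and 11273 expected counts belong to the longer model of the files.

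Of the 10 members in the gene lists, 7 came from the 3 lists of splicing genes. Of 19 genes for SR proteins and their kinases, 1 had a member (5.26%), of 68 hnRNP and other RNA-binding splicing regulators 4 (5.88%), and of 52 core spliceosome genes 2 (3.85%). Over all 10111 genes the share was 3.30%. Ion channel and receptor genes had 2 of 64 (3.13%) and chromatin and transcription regulators 1 of 50 (2.00%). None was found among 47 genes of vesicle release and synapse structure, 29 of myelin and glia and 58 of mitochondria and energy metabolism. These lists were chosen with earlier results of these data known, and with so few members no list can be set apart.

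Srsf6-204 is the SR protein member. SR proteins bind exonic enhancers through an RNA-recognition motif and recruit the spliceosome, and Srsf6 is one of the larger ones. The member had 34.3 and 32.4 TPM (37.4% and 35.7% of the gene) and 4908 and 4891 expected counts. It keeps introns of 672 and 343 bases. The only coding transcript that removes the intron of 672 bases with the same ends is Srsf6-202, at 0.18 and 0 TPM. None removes that of 343 bases with its ends. Introns that overlap these were not counted, so coding transcripts may remove the stretch in another way.

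Rsrp1-204 had 188 TPM in replicate 1 and 164 TPM in replicate 2, 56.3% and 53.9% of its gene, which encodes a small protein rich in arginine and serine. It keeps 5 introns that other transcripts of the gene remove, none of them removed with the same ends in a coding transcript. Introns that overlap these 5 were not counted. The spliced reads across them numbered at most 29 in replicate 1 and 18 in replicate 2. Rbm17-206, of the spliceosomal protein SPF45, had 35.6 and 32.5 TPM but only 285 and 267 expected counts. It is a model of 347 nucleotides with 41 bases outside coding exons. Tial1-208 (the RNA-binding protein TIAR) had 26.9 and 25.9 TPM. Srrm4-203, of the neuronal regulator of microexons, had 8.47 and 7.64 TPM, 46.5% and 43.8% of its gene, and begins 200 bases before the end of the 8th of 12 introns, whose ratio of spliced reads to the neighbouring introns was 0.343 and 0.441.

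In the core spliceosome list, Ddx39b-204 (the RNA helicase UAP56) had 96.8 and 90.6 TPM and ends 801 bases into the 6th of 10 introns. That intron had 1051 spliced reads in either replicate, against 1917 and 1912.5 on its neighbours. Prpf31-205 (a factor of the U4/U6.U5 tri-snRNP) had 24.8 and 26.9 TPM, 53.3% and 53.7% of its gene. Its intron, the 2nd of 12, had 246 and 229 spliced reads, against 242.5 and 271.5 on its neighbours.

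Chd8-207, of a chromatin remodeller, had 13.2 and 13.3 TPM, 34.0% and 36.8% of its gene, and keeps 3 introns near the gene's 3′ end. The intron of 396 bases had 172 and 222 spliced reads, a ratio of 0.589 and 0.643 to its neighbours. The intron of 180 bases had a ratio of 1.12 and 1.11. The introns of 396 and 180 bases lie side by side, so each counts among the other's neighbours. Cacna1h-204, of a T-type calcium channel, and Grin2a-203, of an NMDA receptor subunit, were at 3.02 and 2.71 TPM and at 3.79 and 3.94 TPM.

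Counting all retained-intron transcripts of a gene, members or not, the summed IsoPct averaged over both libraries reached 30% in 6 of 19 SR protein and kinase genes (31.6%) and 16 of 68 splicing regulators (23.5%), against 871 of 10111 genes (8.61%). It did so in 6 of 52 core spliceosome genes (11.5%), 6 of 50 chromatin regulators (12%), 4 of 64 ion channel and receptor genes (6.25%), 3 of 58 mitochondrial genes (5.17%), 1 of 29 myelin and glia genes (3.45%) and 0 of 47 synaptic genes. The median sum was 24.2% in the SR list and 2.39% in the splicing regulators, against 0 over all genes. Only 4339 of the 10111 genes have an annotated retained-intron transcript, and the rest could not reach 30%, so all of the 871 are among the 4339. Over the 4339 genes the median sum was 10.1%. In the SR list 12 of 19 genes have one, and in the splicing regulators 39 of 68. The lists were chosen with earlier results of these data known, and no test was made of these differences. Of the 42 list genes that reached 30%, 32 had no member. Srsf11 reached 59.97% and 62.2% over 7 retained-intron transcripts, and the splicing repressor gene Ptbp1 65.8% and 69.4% over 5. The SR protein kinases Clk1 and Clk4 reached 43.8% and 42.0%, and 44.5% and 43.6%. The chloride channel gene Clcn2 had 77.4% and 77.0% over 6 transcripts.

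**Figure D4:**
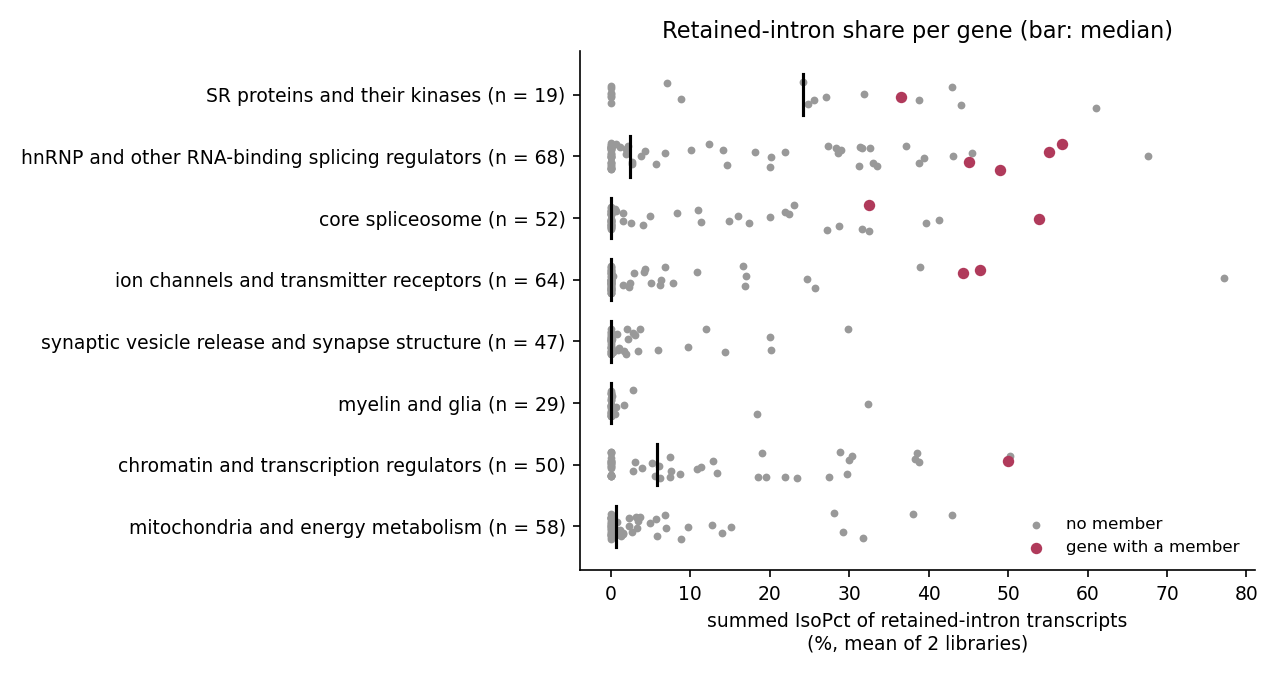
Summed IsoPct of all retained-intron transcripts of a gene (horizontal axis, percent, mean of 2 libraries), 1 point per gene, by gene list. Red points are genes with a member and the black bar is the list's median, which is 24.2% for SR proteins and their kinases.

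The ratio of TPM in replicate 1 to replicate 2 was at least 1.5-fold in 3 of 338 members (0.888%), against 0.633% of the 10743 transcripts of any type with IsoPct of at least 30 in both libraries. It was at least 1.5-fold the other way in 5 members (1.48%), against 0.307%. With 1 library a side there is no test. The median absolute log2 ratio was 0.15 in members, against 0.10 in the 10405 transcripts of other types with the same share, and IsoPct differed by a median of 2.72 percentage points, against 1.37. In 285 of the 338 members the authors' intervals for TPM overlapped between the libraries. The same count was not made over other transcripts, so it cannot be set against a usual share.

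The member furthest above its level in replicate 2 was Ehd1-203, of an endocytic recycling gene. Ehd1-203 had 59.3 TPM in replicate 1 and 35.0 TPM in replicate 2, from 1358 and 839 expected counts, and the authors' TPM intervals did not overlap. The other members over 1.5-fold higher in replicate 1 were Ccdc142-202, with 5.63 and 3.65 TPM, and Pde3b-203 (a phosphodiesterase), with 4.70 and 3.12 TPM. Higher in replicate 2 were Immp2l-204 with 1.78 and 3.46 TPM, Cpm-204 with 2.00 and 3.25 TPM, Swt1-207 with 4.96 and 8.00 TPM, Atp13a4-204 with 7.18 and 11.5 TPM, and Sap25-202 with 3.68 and 5.73 TPM. Next in order came Ebf4-205 and Ptpn12-202, at 3.05 and 2.09 TPM and at 16.7 and 11.6 TPM, both short of 1.5-fold. The choroid plexus markers also differed between the libraries, and their part in these ratios was not tested. Ccdc142-202 is listed in the files under the gene that M21 names Gm42688.

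The members just inside were Pcif1-204 (33.8% and 30.1%), Zdhhc24-206 (30.7% and 30.1%) and Capns1-207 (32.6% and 30.1%). Just outside were Dnase1l2-205 (37.2% and 29.99%), Litaf-203 (33.2% and 29.9%) and Calb1-202 (40.8% and 29.9%), the last from the gene of calbindin, a marker of Purkinje neurons.

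The kept introns were short. In the 106 members that span an intron, 132 introns were kept, 1 each in 85 members, 2 in 18 and 3 or more in 3. Where kept introns overlapped, those removed by the most transcripts were taken first, then the shortest. The introns that overlapped them were left out. Their median length was 187 bases (53 to 2501), against 239 for the 3719 introns kept by other retained-intron transcripts and 1415 for the 126861 introns of coding transcripts of the same genes. A kept intron has to fit inside 1 exon of a transcript model, which limits its length. The introns of coding transcripts have no such limit, so only the 239 is a like comparison. Under 100 bases were 35 of them. Their median G and C content was 56.0%, against 51.7% in introns kept by the others, and that of the 50 exonic bases to either side was 55.3%, against 53.1%.

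Their splice sites were of the common kinds. The ends were GT and AG in 129 introns, GC and AG in 2, and others in 1. The donor began with GTAAG or GTGAG in 64 (48.5%), against 51.3% in introns kept by others. Pyrimidines made up a median of 72.5% of the 20 bases before the last 3, against 70%. In the coding transcript with the highest TPM that removes the intron, 112 of the 132 lay between coding exons, 3 in the 5′ UTR and none in the 3′ UTR. A further 4 lay in a coding part of unknown start. The other 13 were removed with the same ends in no coding transcript. Read on in frame, 96 of the 112 introns in coding regions (85.7%) held a stop codon, against 88.5% of 3219 introns kept by others. Of the 16 without a stop, 4 had a length divisible by 3. No test was made of these differences.

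Most kept introns were also removed in part of the RNA. The deposited junction table, on the mm9 assembly, comes from the same group of libraries, so it is not independent of the values that chose the members. In 98 members with a kept intron in the mm9 annotation, 94 had at least 1 spliced read across it in both replicates. Spliced reads were also usual in introns kept by other retained-intron transcripts. With GT and AG ends, 109 of 3017 of those had none, against 1 of 114 in members. Over their 123 introns the median was 70 reads in replicate 1 and 71 in replicate 2 (0 to 1844 and 0 to 1894). The 123 include gaps of 1 and 2 bases in Zfp384-211 and of 30 bases in Tial1-208, which had no spliced read. The number was set against the mean of the introns to either side, where these had at least 50 reads in both replicates. Those neighbours could themselves be kept by a member. The median ratio was 0.53 over 93 introns spanned by members (0.529 in replicate 1 and 0.525 in replicate 2), against 0.876 over 2427 spanned by other retained-intron transcripts and 0.960 over 69730 introns that no such transcript touches. Introns that members enter in part had a median of 0.814 (n = 168), against 0.883 over 5361 introns that other retained-intron transcripts enter.

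**Figure D5:**
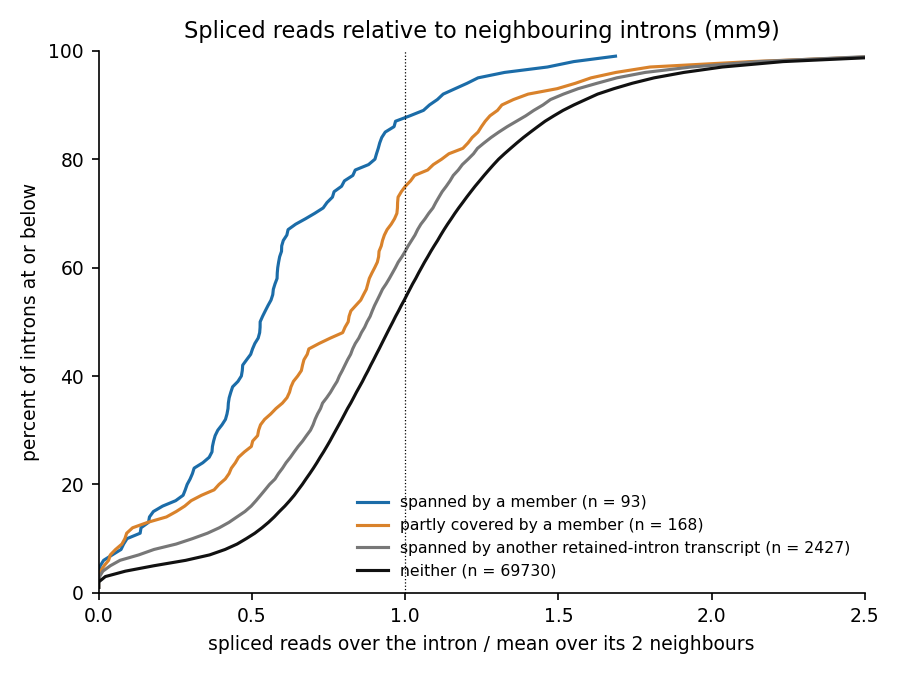
Cumulative percent of introns (vertical axis) by the ratio of spliced reads over an intron to the mean over the introns to either side (horizontal axis, both replicates summed). Introns spanned by members (blue) have a median of 0.53, those partly covered by members (orange) 0.814, those spanned by other retained-intron transcripts (grey) 0.876, and those that no retained-intron transcript touches (black) 0.960.

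The ratio was under 0.5 in both replicates in 35 of the 93 introns (37.6%), against 14.3% of introns spanned by other retained-intron transcripts and 9.37% of untouched ones. It was at least 1 in both in 10 of the 93, against 785 of 2427 introns spanned by other retained-intron transcripts and 27759 of 69730 untouched ones. The extremes, chosen after their values were seen, were Zfp740-204 and Tor1b-203, with no spliced read over introns of 391 and 1760 bases in either replicate, and, at the other end, Gtpbp6-202, with 296 and 274 reads over an intron of 119 bases and a ratio of 2.62 and 2.50. Gtpbp6-202 also keeps the next intron, which had 99 and 108 reads, so that ratio has a kept intron among its neighbours. The introns of Zfp740-204 and Tor1b-203 are the only 2 of the 132 that begin with GC. Among introns kept by other retained-intron transcripts, 26 of 33 with GC and AG ends had no spliced read in the deposited table, against 109 of 3017 with GT and AG ends, so the zeros of these members cannot be told apart from junctions that the table lacks. In 81 of these introns, transcripts that keep the intron held a median of 51.1% of the TPM of all transcripts that keep or remove it, and 100% minus the ratio had a median of 43.4%. These medians come from different tables and are set side by side only.

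Most members had no junction of their own: 267 of the 286 members with the same length in the mm9 annotation share every junction with another transcript. Of the 19 with one, 16 had reads on it in both replicates. In the other 267, a spliced read fits another transcript as well.

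Same-strand contigs, the authors' stretches of continuous coverage, covered 121 of the 123 kept introns from end to end in 1 contig (98.4%), against 62.4% of 3423 introns of the same genes that no retained-intron transcript touches. The contigs come from the same libraries, so this coverage is not independent of the values that chose the members. No value is given for introns spanned by other retained-intron transcripts. The gap was widest in the longest introns. Below 200 bases the shares were 66 of 66 against 88.6%, from 200 to 1000 bases 41 of 43 (95.3%) against 76.4%, and above 1000 bases 14 of 14 against 40.6%. The part of an intron that members began in was covered by a median of 100% of its bases, and so was the rest of the same intron.

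The mm9 transcript table, on an older annotation, is a second quantification of the same libraries. Its shares are not independent of the values that chose the members, and the transcripts set beside them failed that choice, so the counts are a description. Of 292 members found there, 135 (46.2%) held at least 30% of their gene's RPKM in both replicates, against 202 of 8834 other retained-intron transcripts (2.29%). The median share was 32.4%, against 4.46%. It was under 10% in both replicates in 29 members and under 5% in 17. Timm17a-204 was at 1.20% and 0, against an IsoPct of 82.3% and 79.8%, and Stmn4-205 at 0.628% and 0.898%, against 50.8% and 48.0%. Ap2m1-204 was at 0.633% and 2.88%. For other members both tables gave a large share: Mrps26-201 had 95.9% and 96.8%, Slc39a2-202 had 93.4% and 93.2%, Ccnl2-205 had 54.1% and 55.2%, and Dync1h1-204 had 58.8% and 65.8%. For Rsrp1-204 the mm9 share was 22.6% and 16.4%, against an IsoPct of 56.3% and 53.9%.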

How the data were processed

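Per the labels' protocols, the libraries are stranded and paired-end. Per the file headers, the authors' mm10 tables hold an expected count, a TPM value and, as a percent, IsoPct, with intervals for TPM. The deposited index files name GENCODE M4 for mm10 and Ensembl 65 for mm9. Neither labels nor headers name the programs used for alignment and quantification. The authors' mm9 tables give RPKM per transcript, the deposited count of reads R1 and R2 per junction, a contig coverage signal deposited over both replicates, and a deposited irreproducibility fraction. R1 and R2 name replicates, not libraries. mm9 and mm10 were joined by identifier only.

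Transcript types, exons and sequences came from GENCODE M21, which has the same assembly as mm10. 101168 of 103639 Ensembl transcripts (97.6%) matched. Introns under 30 bases were left out of backgrounds. TPM ratios had no pseudocount. The counts used as an alternative were rounded and TMM-scaled in edgeR 4.0.16 (R 4.3.3) with a prior count of 2. Other work used Python 3.11.15 and pandas 2.3.3. The structure, frame and ratio calculations were tested on made-up cases.

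Members and gene lists were chosen with earlier results of these data known. Named members are the 10 highest by IsoPct, by TPM and by expected count, the 5 largest ratios in each direction, all members in the lists, and 3 transcripts on each side of the threshold. One member that this rule names is not reported here. No p-values were computed, because a single group has no contrast.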

Additional observations from a re-analysis of the deposited data

How the results depend on the processing

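No paired analysis was possible because all samples form 1 group. Each result was recomputed under the alternatives listed here. Of 71 alternative values, 46 stayed within the limits set. These were 1.5 times for a count and the spread between replicates for the median count share. The medians of kept intron length and of contig coverage had to be equal, so any shift of them fell outside. With an IsoPct threshold of 20 there were 765 members in 713 genes with a median count share of 15.6%. With one of 50 there were 56 members in 56 genes, 43 with at least 30% of the gene's counts and a median count share of 53.9%. All 56 led their gene, which a share of at least 50% of its TPM fixes in advance. Applying the 30% threshold to expected counts gave 218 transcripts. With gene TPM of at least 20 the median count share was 21.4% and 83 members held at least 30% of counts. With members of at least 400 nucleotides the median count share was 23.9%. The median kept intron was 184 bases with IsoPct from the posterior mean TPM, 203 at a threshold of 20, 273 at one of 50, 179.5 with gene TPM of at least 1, 192 with gene TPM of at least 20, and 189.5 with at least 50 expected counts. At a threshold of 10% of RPKM, 238 members passed in the mm9 table. With TPM plus 1, 4 members were over 1.5-fold apart, and at a fold of 2 there were 0. By TMM-scaled counts 8 were, as by TPM, and the median log2 ratio of members shifted by -0.08.

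With 1 library in place of both, there were 382 to 387 members in 376 to 382 genes, with 223 to 242 leading, a median count share between 19.8% and 21.6%, 136 to 143 members with at least 30% of counts, and a median kept intron of 179 to 184 bases. Spliced reads were found in 94 to 95 members and large mm9 shares in 156 to 163.

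Over all 338 members the posterior coefficient of variation of the expected count had a median of 3.41% in replicate 1 and 3.37% in replicate 2, and reached 40.3% and 28.2%. That covers counting and assignment within the given annotation only.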
